A study of Mus musculus with 10 samples.

Results

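The vacuolar proton pump (V-ATPase), lysosome and endosome genes were followed in RNA-seq data from the enamel organ of mice, the epithelial tissue from which tooth enamel is laid down. The members were 38 listed genes, matched by gene symbol, and 38 of 38 were measured in both tables, which held 16292 genes in ameloblasts and 16638 genes in stratum intermedium. They comprised 6 subunits of the membrane sector V0 of the pump, 8 of its catalytic sector V1, 2 accessory proteins, 5 lysosomal membrane proteins, 5 endosome and coat genes, 5 cathepsins and 7 other proteins of the lysosomal lumen. Each of them had a mean far above the minimum of 10 used for testing.

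Ameloblasts, which secrete and later mature the enamel matrix, and stratum intermedium, the layer that backs them, had been cut separately by laser from frozen sections of hemi-mandibles. Each layer had 2 libraries from wild-type (WT) mice and 3 from mice knocked out (KO) for claudin-10, a tight junction protein that forms ion channels between cells, and no treatment was named. Strain, age, the promoter of any Cre, the deleted part of Cldn10 and the tooth stage that was cut were not given in the sources used here. Library names carried the prefixes WT10, WT5, KO1, KO3 and KO9 in both layers, and each prefix was taken as 1 mouse, which the labels do not state. If they were not separate mice, the p-values measure only a spread that may be technical. The library names also carried a group number, the library group, whose meaning the labels do not give. WT5 and KO3 were in group 1, WT10 and KO9 in group 2, and KO1 alone in group 3. Group 3 held no WT library, so anything particular to it cannot be told apart from KO1. In bulk tissue of this kind, fewer cells of a type and less RNA per cell cannot be told apart.

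The V-ATPase is a rotary pump. Its V1 sector splits ATP in the cytosol and its V0 sector carries protons across the membrane, which acidifies endosomes and lysosomes and, at the ruffled border of osteoclasts and of maturation-stage ameloblasts, the space outside the cell. Acid hydrolases such as the cathepsins work in these compartments. Ameloblasts are known to take back fragments of cleaved enamel proteins by clathrin-dependent uptake and to degrade them in lysosomes.

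Many genes of this pathway carry in their promoters the CLEAR element, whose core reads TCACGTGA and which is bound by the transcription factor TFEB and its relatives. RefSeq promoter windows of GRCm38.p6, which run from 250 bases before to 50 bases after the start of transcription, were matched for 30 of the 38 members. No window was matched for Asah1, Atp6v0a2, Atp6v1b2, Atp6v1c1, Atp6v1g1, Atp6v1h, Ctsb and Npc1. TCACGTGA, which reads the same on both strands, was present in 6 of the 30 (20%), namely Atp6v0d1, Atp6v0e, Atp6v1a, Ctsa, Ctsd and Rab5a, against 304 of 27025 genes with a window (1.12%) and 0.974% of 32851 windows. The shorter E-box core CACGTG, which TCACGTGA contains, was present in 9 of the 30 (30%), with Atp6v0b, Ctsl and Lamp1 added, against 8.09% of genes. Stretches of 60 bases around the element of Atp6v1a, the pump subunit with the smallest p-value in stratum intermedium, and of Rab5a, an early endosome gene that hardly differed, are shown 5′ to 3′ with the element in capitals. The Atp6v1a stretch lay at chr16:44139358-44139417 on the minus strand, within the Atp6v1a gene as annotated by GENCODE but outside its exons, and its element began 132 bases before the start. The Rab5a stretch lay at chr17:53479112-53479171 on the plus strand, outside annotated exons, and its element began 96 bases before the start. A match is a description of these letters and not of binding.
Atp6v1a: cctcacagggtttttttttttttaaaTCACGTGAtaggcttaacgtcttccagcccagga
Rab5a: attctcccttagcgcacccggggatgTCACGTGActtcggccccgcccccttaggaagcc

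The deposited values were normalized counts, which summed to between 21006977 and 26856177 per library. Reads per library were unknown. Cldn10, the targeted gene, had 600 and 752 normalized counts in the WT10 and WT5 ameloblasts and 280, 408 and 149 in KO1, KO3 and KO9. In stratum intermedium it had 7257 and 2365 in WT and 1003, 387 and 465 in KO, so that every KO library lay below both WT libraries in each layer. Ameloblast markers made up 2.22% to 9.16% of the normalized counts of ameloblast libraries, with the highest share in KO1, and 0.129% to 0.950% of those of stratum intermedium. Among them Klk4, the protease of the maturation stage, stood at 0 to 79.0 normalized counts in ameloblasts. Amtn, on the same list, had 78.2, 364, 377, 103 and 65.0 in the ameloblasts of WT10, WT5, KO1, KO3 and KO9. Odam had 128, 1004, 1159, 1057 and 88.2. Whether the tooth stage that was cut differed between libraries was not tested. The stratum intermedium markers made up 0.189% to 0.517% of stratum intermedium libraries. Odontoblast, pulp and bone matrix markers made up 2.40% to 6.32% of all 10 libraries, so neither layer was free of mesenchymal RNA. In the WT5, KO3 and KO9 ameloblasts they stood at 6.21%, 4.83% and 4.88%, above the ameloblast markers at 2.67%, 3.84% and 2.22%. WT10 and KO1 had the reverse, at 4.17% against 4.75% and 3.73% against 9.16%. In every stratum intermedium library they stood above the stratum intermedium markers. The layer differences below are therefore those of mixed captures. KO1 and KO3 expressed Xist and had 0 normalized counts of the Y-linked gene Ddx3y, while WT10, WT5 and KO9 had the opposite pattern, so sex and genotype were in part confounded.

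Per kilobase of exon, the members differed widely in abundance, with Cd63 and Atp6v1g1 highest and Npc1 and Ap2b1 lowest in both layers. The ranks given for each role are ranks among the members only. The levels per kilobase are means over 5 libraries of the normalized count divided by the length of all annotated exons joined. In V0, the proteolipid Atp6v0c, which forms most of the rotating ring, was the most abundant, at 5969 per kilobase in ameloblasts and 4650 in stratum intermedium. The large subunits that hold the proton half-channels were the least abundant, with Atp6v0a2 lowest in ameloblasts at 156 and Atp6v0a1 lowest in stratum intermedium at 125. In V1, the stalk subunit Atp6v1g1 stood highest, at 9615 and 8155, and the regulatory subunit Atp6v1h lowest, at 317 and 278. Of the accessory proteins, Atp6ap1 stood at 3730 and 2476 and Atp6ap2, the prorenin receptor, at 2679 and 2176.

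Among the member lysosomal membrane proteins the tetraspanin Cd63 was highest, at 9724 per kilobase in ameloblasts and 8870 in stratum intermedium. The cholesterol exporter Npc1 was lowest, at 69.1 and 62.3. Laptm4a, a lysosomal membrane protein outside the members, stood above Cd63, at 16259 and 17825. Of the member endosome and coat genes, the late endosome GTPase Rab7 was highest, at 2693 and 2732. The clathrin adaptor subunit Ap2b1 was lowest, at 86.7 and 60.4. Chmp2a, an endosome and sorting gene outside the members, stood above Rab7, at 3311 and 3105. Ctsd, the main aspartic protease of lysosomes, led the member cathepsins in ameloblasts at 6471, and Ctsz led them in stratum intermedium at 5497. Ctsl was lowest of them in both, at 1130 and 1148. Its mean normalized count in ameloblasts was near that of Ctsz, at 7335 and 7637, but over 6.489 against 1.441 kilobases of annotated exon. Ctsk, a cathepsin outside the members and on the osteoclast marker list, stood far higher, at 29187 and 35793 per kilobase. Psap, the precursor of the saposins that help sphingolipid hydrolases, led the other lumen proteins among the members at 5227 and 6018. The lowest of these were Ppt1 in ameloblasts, a thioesterase, at 915, and Tpp1 in stratum intermedium, a tripeptidyl peptidase, at 681.

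**Figure D1:**
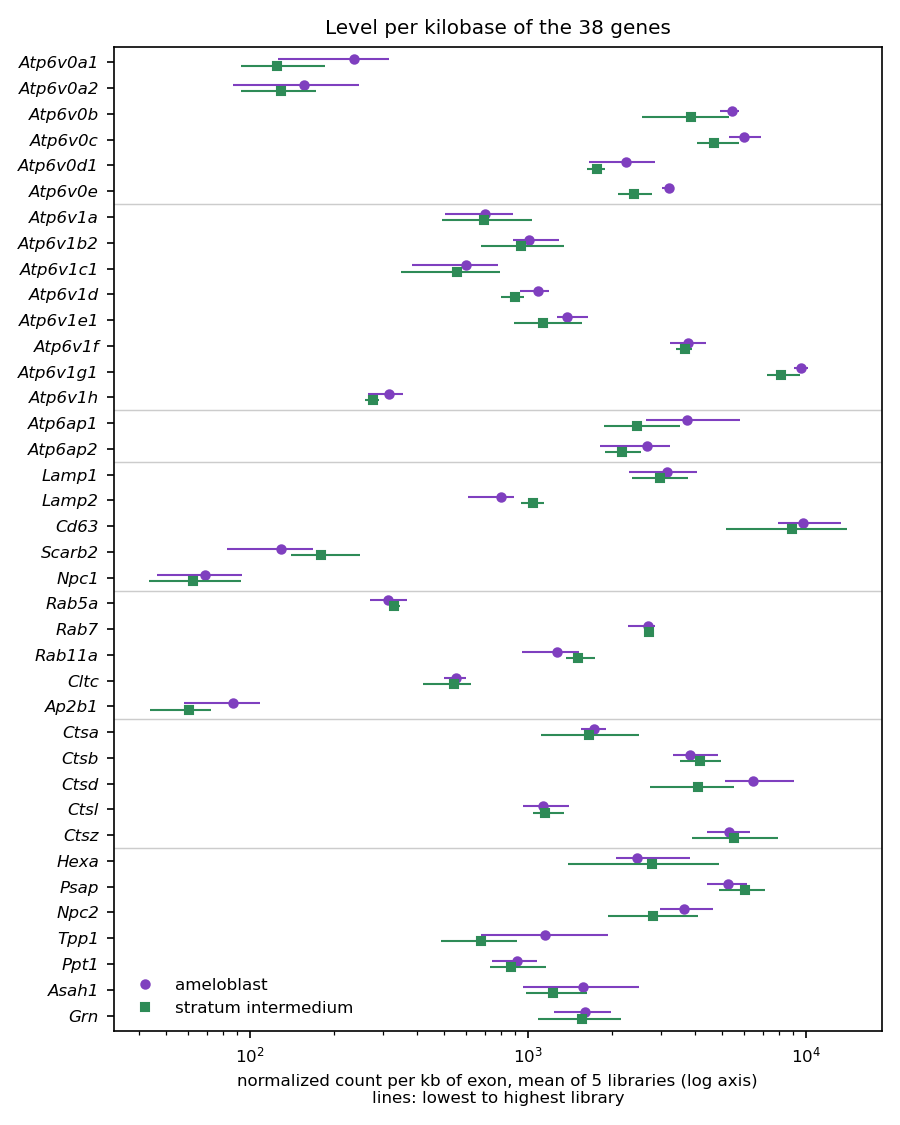
Level per kilobase of exon (normalized count per kilobase, log axis) of the 38 genes, ordered by role, with a point at the mean of the 5 libraries of a layer and a line from the lowest to the highest library. Ameloblast means range from 69.1 per kilobase for Npc1 to 9724 for Cd63, far more than the libraries of any 1 gene.

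Several of the abundant genes varied little between ameloblast libraries. Atp6v0c had 23239 and 19914 normalized counts in WT10 and WT5 ameloblasts and 19603, 17931 and 20306 in KO1, KO3 and KO9. Atp6v1g1 had 11426 and 11516 in WT and 10233, 10704 and 10690 in KO ameloblasts. Rab7 had 7424 and 5980 in WT and 7445, 7278 and 7016 in KO ameloblasts. In these 3 genes the highest ameloblast library was within 1.5-fold of the lowest. Ctsd and Atp6ap1 varied more, from 12026 (KO9) to 21339 (KO1) and from 8045 (WT5) to 17543 (KO1).

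Cd63 and Npc1 were highest in the same mouse in both layers. Cd63 had 29211 and 49154 normalized counts in WT10 and WT5 ameloblasts against 29955, 34601 and 36095 in KO, and 18901 and 51716 in WT stratum intermedium against 24927, 34112 and 33640 in KO. Npc1 had 785 and 1059 in WT ameloblasts against 524, 860 and 681 in KO, and 489 and 1054 in WT stratum intermedium against 707, 721 and 557 in KO. For both genes WT5 was the highest library of each layer.

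In stratum intermedium WT5 was the highest library for most of these abundant genes. Atp6v0c had 14591 and 19470 normalized counts in WT10 and WT5 and 13738, 14475 and 16397 in KO1, KO3 and KO9. Ctsz had 5605 and 11379 in WT and 6852, 7597 and 8174 in KO stratum intermedium, and 6328, 9075, 7228, 6827 and 8725 in the ameloblasts of the same order of mice. Psap had 13356 and 19471 in WT and 18945, 14443 and 16359 in KO stratum intermedium, and 12097, 13585, 16796, 13804 and 15426 in ameloblasts. WT10 was the lowest stratum intermedium library and WT5 the highest for both Ctsz and Psap. Rab7 was the exception, at 6920 and 7258 in WT and 7382, 6990 and 7103 in KO stratum intermedium, and Atp6v1g1 had 8204 and 10808 in WT and 8541, 9868 and 8858 in KO.

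Between the layers, most of the pump and lysosome genes stood higher in ameloblasts than in stratum intermedium of the same mouse. The tables had been normalized separately, so each log2 value was first centred on its library's median over genes in both tables, and the ameloblast minus stratum intermedium difference was then taken within each prefix, as a description with no test. The mean difference was above 0 for 35 of 38 members, against 55.9% of all 15567 genes in both tables. It was above 0 in each of the 5 mice for 16 members (42.1%, against a background of 12.8% of all genes), and below 0 in each of the 5 for 0 members (background 8.4%). The members' median difference was 0.37 on the log2 scale, against 0.07 over all genes. Leaving out WT5 raised the 16 members to 29, with the background at 21.6%. With values expressed as a share of the library total instead, the mean difference was above 0 for 22 of 38 members, against 28.8% of all genes. On that scale 8 members stood higher in ameloblasts in each mouse (background 5.74%) and 4 in stratum intermedium (background 20.1%). The members' median was then 0.050, against −0.25 over all genes, so the sign of a small layer difference depends on this scaling.

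All 16 V-ATPase subunits and accessory proteins among the members had a mean difference above 0 with median centring, and 10 of the 16 were higher in ameloblasts in each mouse. As shares of the library total, 14 of the 16 had a mean above 0 (28.8% of all genes), and 6 were higher in ameloblasts in each mouse. The groups were not tested against each other. The V0 genes had a median of 0.61 with 5 of 6 higher in each mouse, the V1 genes a median of 0.38 with 5 of 8, and the accessory genes a median of 0.64 with 0 of 2. The mean was also above 0 for all 5 cathepsins, with a median of 0.19 and 1 of 5 (Ctsd) higher in each mouse, and for all 7 other lumen proteins, with 0.31 and 2 of 7. Endosome and coat genes had a median of 0.19 with 1 of 5. Of the lysosomal membrane proteins 2 of 5 were higher in each mouse. The members with a mean below 0 were Scarb2, the receptor that carries glucocerebrosidase to lysosomes (−0.27 ± 0.61, SD, n = 5), Lamp2 (−0.17 ± 0.19) and the recycling endosome GTPase Rab11a (−0.05 ± 0.33).

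Atp6v0a1 had the widest gap between layers, a mean log2 difference of 1.13 ± 0.53 (SD, n = 5), or 2.18-fold. It is annotated on GRCm38 at chr11:101009452-101063719 on the plus strand. It had 2078, 824, 1714, 1541 and 1625 normalized counts in the ameloblasts of WT10, WT5, KO1, KO3 and KO9, and 873, 705, 1225, 685 and 610 in their stratum intermedium. Ameloblasts were higher in each mouse, least so in WT5. Atp6v0b, a proteolipid of the ring, followed the same pattern at 0.74 ± 0.37, with 10830, 11581, 11774, 10057 and 11333 in ameloblasts and 5280, 10796, 7590, 7593 and 8246 in stratum intermedium.

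Ctsd differed by 0.89 ± 0.48 on the log2 scale and was higher in ameloblasts in each mouse. It had 14910, 12924, 21339, 14865 and 12026 normalized counts in ameloblasts and 6465, 12951, 10844, 9613 and 8112 in stratum intermedium, in the same order of mice. In WT5 the deposited values of Ctsd were close to each other in the layers, and the centred difference there was 0.19. Tpp1 (0.92 ± 0.69), Atp6ap1 (0.79 ± 0.66) and Ap2b1 (0.73 ± 0.46) were higher in ameloblasts in 4 of 5 mice, with WT5 the exception for each. Atp6ap1 had 10271, 8045, 17543, 11187 and 9385 in ameloblasts and 5676, 10646, 7129, 6842 and 7168 in stratum intermedium.

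**Figure D2:**
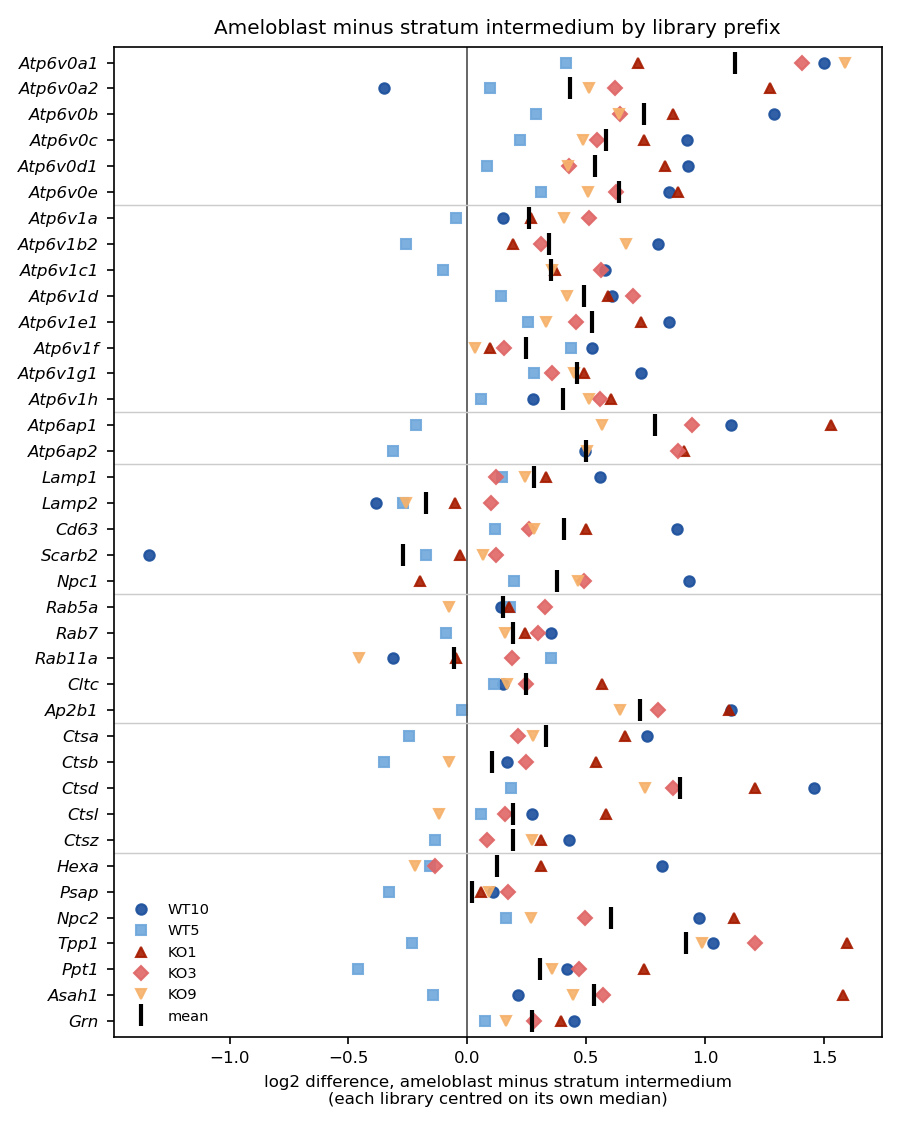
Ameloblast minus stratum intermedium difference of each of the 38 genes (log2, centred on the library median), with a point for each of the 5 library prefixes, taken as mice, and a bar at their mean. Means run from 1.13 for Atp6v0a1 to −0.27 for Scarb2, and 35 of the 38 lie above 0.

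The layer difference can be read beside the osteoclast markers, since osteoclasts carry large amounts of V-ATPase and lysosomal enzymes and lie against the growing tooth. All 10 osteoclast markers were measured in each layer and none was at 0 in any library. Acp5, the tartrate-resistant acid phosphatase, had 7905 to 49256 normalized counts in ameloblasts and 10457 to 59024 in stratum intermedium. The markers together made up 0.359%, 0.787%, 0.106%, 0.280% and 0.470% of the ameloblast libraries of WT10, WT5, KO1, KO3 and KO9. They made up 0.195%, 0.952%, 0.248%, 0.417% and 0.615% of the stratum intermedium libraries. As a share of the library total, the markers were higher in stratum intermedium in 4 of 5 mice and higher in ameloblasts in WT10. The 9 macrophage markers made up 0.0130% to 0.0624% of the libraries.

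Within stratum intermedium, the members moved with the osteoclast share, and other marker lists changed along the same order. Ordered by that share, from WT10 through KO1, KO3 and KO9 to WT5, the median deviation of the members from their own layer mean was −0.20, −0.07, −0.02, 0.03 and 0.26 on the log2 scale. WT5 was the highest stratum intermedium library for 26 of 38 members, against 20.03% of all genes, and WT10 the lowest for 22, against 28.2%. Between these WT libraries 32 of 38 members (84.2%) were higher in WT5, against 51.6% of all genes. In ameloblasts the order was not shared, with medians of 0.10, −0.00, −0.08, 0.03 and −0.02 from the lowest share (KO1) to the highest (WT5). KO1 was the highest ameloblast library for 19 members, against 22.1% of all genes. The stratum intermedium order was not particular to osteoclast markers. From WT10 through KO1, KO3 and KO9 to WT5, macrophage markers made up 0.0130%, 0.0269%, 0.0378%, 0.0441% and 0.0624%. In that order stratum intermedium markers made up 0.517%, 0.499%, 0.203%, 0.246% and 0.189%. Odontoblast, pulp and bone matrix markers made up 2.40%, 3.76%, 4.13%, 3.69% and 6.32%. The part of osteoclast RNA, or of RNA from other cells, in the members' values was not tested.

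**Figure D3:**
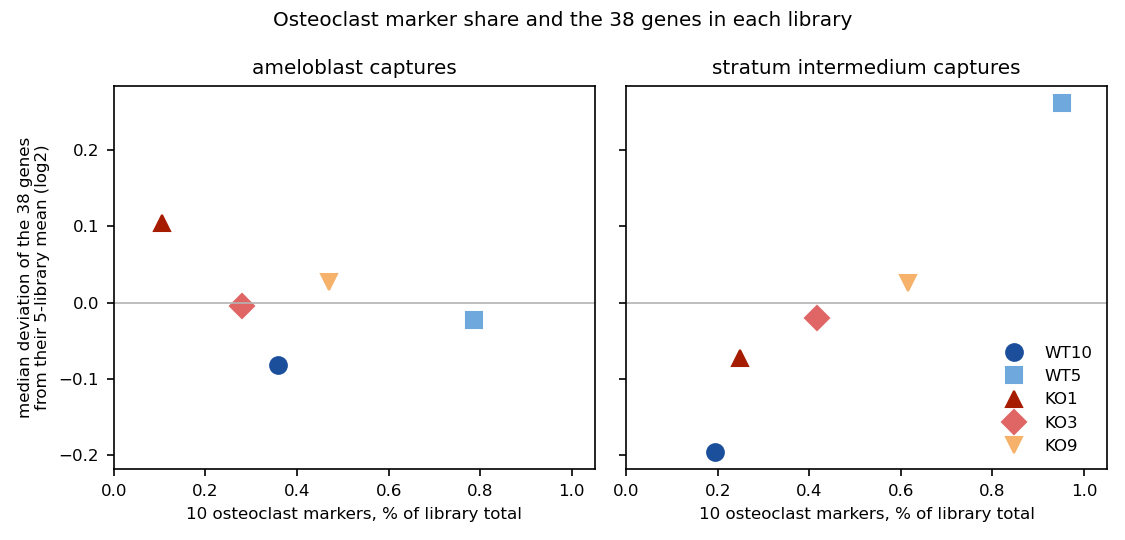
Median deviation of the 38 genes from their layer mean (log2) against the summed share of 10 osteoclast markers (percent of normalized counts), with a point for each library and a panel for each layer. In stratum intermedium the points climb from −0.20 at 0.195% (WT10) to 0.26 at 0.952% (WT5), and in ameloblasts they show no such order.

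Loss of claudin-10 was compared with WT within each layer to ask whether the acid and uptake machinery differed. In ameloblasts none of the 38 genes passed the test. In limma, 0 of 16212 genes (0.0%) passed an adjusted p of 0.05, and the lowest adjusted p was 0.989, for the members as for all genes. At an unadjusted p under 0.05, limma called 498 genes (3.07%) and 1 member, Atp6v0a2. Without KO9 the latter count was 2 members, and without KO1 it was 0. The KO mean on the log2 scale was the higher for 25 of 38 members (65.8%, against 53.0% of all genes), and the members' median KO minus WT value was 0.047, against 0.035 over all genes. Every KO library lay above every WT library for 9 members (23.7%, background 9.09%), and below for 3 (7.89%, background 9.26%).

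The intervals showed how large an ameloblast difference the libraries could still hold. The 95% interval of the KO minus WT difference lay within ±1 on the log2 scale for 28 of 38 members, against 27.2% of all genes. The standard errors of the members had a median of 0.25, against 0.44 over all genes. With 2 libraries against 3, an exact permutation test of a single gene cannot give a p below 0.1.

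The V0 subunit Atp6v0a2 had the smallest ameloblast p-value of the members. Its gene (ENSMUSG00000038023) spans chr5:124628576-124724455 on the plus strand of GRCm38. It had 767 and 586 normalized counts in WT10 and WT5 and 1660, 1001 and 1240 in KO1, KO3 and KO9. Every KO library lay above both WT libraries. The means were 677 ± 128 (SD, n = 2) in WT and 1300 ± 334 (SD, n = 3) in KO, a log2 difference of 0.92 (SE 0.30) with a limma p of 0.019 and an adjusted p of 0.989. With the Xist level in the fit, which set KO1 and KO3 apart, the log2 difference was 0.88. That value rests on KO9 alone against WT10 and WT5, so it is not an estimate over all KO libraries. The other V0 genes lay between −0.16 and 0.31, so the V0 sector as a whole showed no common difference.

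In the V1 sector the ameloblast differences were small and of either sign, from −0.30 to 0.31. Atp6v1f, a subunit of the central stalk, had 4358 and 4635 normalized counts in WT and 3769, 3753 and 3445 in KO. Atp6v1e1, in the peripheral stalk, had 5553 and 6751 in WT and 5207, 5413 and 5404 in KO. These and Atp6v1g1 were the members with every KO library below WT. Atp6v1h lay the other way, at 2813 and 2586 in WT and 3452, 3432 and 3174 in KO, a log2 difference of 0.31 (SE 0.20). It was the only member, 1 of 38, with every KO library above WT in ameloblasts and below WT in stratum intermedium (background 0.7%).

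The accessory protein Atp6ap2, which is needed to assemble the pump and is X-linked, had 6818 and 4734 normalized counts in WT ameloblasts and 8483, 7791 and 7238 in KO1, KO3 and KO9. The KO libraries lay above WT, with a log2 difference of 0.46 (SE 0.24, adjusted p = 0.989 in limma), which was 0.72 without WT10 and 0.20 without WT5. Atp6ap1, also X-linked, had a similar mean difference, 0.43 (SE 0.32), but its KO9 value of 9385 lay below the 10271 of WT10. KO1 and KO3, the libraries that expressed Xist, had 17543 and 11187 in ameloblasts, against 10271, 8045 and 9385 in WT10, WT5 and KO9. In stratum intermedium WT5 was the highest Atp6ap1 library, at 10646.

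Among lumen proteins the widest ameloblast differences were those of Asah1, the acid ceramidase, and Tpp1. Asah1 had 3253 and 4373 normalized counts in WT and 8510, 6037 and 4638 in KO, with a log2 difference of 0.72 (SE 0.31, adjusted p = 0.989 in limma). The KO libraries lay above WT, KO9 by little. The log2 difference of Asah1 was 0.49 without KO1. It was 0.30 with the Xist level in the fit, where only KO9 stood against the WT libraries. Tpp1 had 5059 and 3503 in WT and 9998, 4946 and 6187 in KO, with a log2 difference of 0.68 (SE 0.35, adjusted p = 0.989 in limma) and with KO3 below WT10. The log2 difference of Tpp1 was 0.39 without KO1 and 0.41 without WT5. Ppt1 had 3010 and 2728 in WT and 3971, 3383 and 3714 in KO, without overlap, and a log2 difference of 0.36 (SE 0.21). Of the 7 lumen proteins 6 had a positive difference, against 53.0% of all genes. Among these, Npc2 and Grn hardly differed, at 0.006 (SE 0.28) and 0.007 (SE 0.26). Hexa, a subunit of beta-hexosaminidase, was negative at −0.38 (SE 0.29).

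Cathepsins, membrane proteins and endosome genes were also mixed. Ctsb and Ctsl had every KO ameloblast library above WT, with log2 differences of 0.30 (SE 0.24) and 0.25 (SE 0.22). Ap2b1 had 697 and 509 normalized counts in WT and 954, 765 and 872 in KO, a log2 difference of 0.53 (SE 0.27, adjusted p = 0.989 in limma), which was 0.30 without WT5. Its partner in the coat, the clathrin heavy chain Cltc, had a difference of −0.05 (SE 0.21). Rab5a, Rab7 and Rab11a lay between −0.01 and 0.12. Among membrane proteins Scarb2 had 519 and 792 normalized counts in WT ameloblasts and 739, 1056 and 948 in KO, with overlap, a log2 difference of 0.50 (SE 0.31). Npc1 differed by −0.43 (SE 0.31), the X-linked Lamp2 by 0.27 (SE 0.23), Lamp1 by 0.18 (SE 0.29) and Cd63 by −0.18 (SE 0.30).

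The KO ameloblast libraries also stood apart from WT in markers of other cells. Stratum intermedium markers made up 0.0876% and 0.107% of the WT10 and WT5 ameloblast libraries and 0.212%, 0.253% and 0.169% of KO1, KO3 and KO9, and 8 of 8 markers had a higher mean in KO. Haemoglobin genes and Alas2, taken as red blood cell markers, summed to 0.244% and 1.28% in WT10 and WT5 and to 0.0814%, 0.144% and 0.0930% in KO1, KO3 and KO9, and 0 of these 5 had a higher mean in KO. Of the 10 osteoclast and 4 endothelial markers, 0 had a higher mean in KO ameloblasts, with shares that overlapped between genotypes. In WT mice the mean centred ameloblast minus stratum intermedium difference was −0.13 for Atp6v0a2 and 0.03 for Asah1. The WT mice differed in sign, with −0.35 in WT10 and 0.10 in WT5 for Atp6v0a2, and 0.21 and −0.15 for Asah1. The part of these marker differences in the KO differences of the members was not tested.

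**Figure D4:**
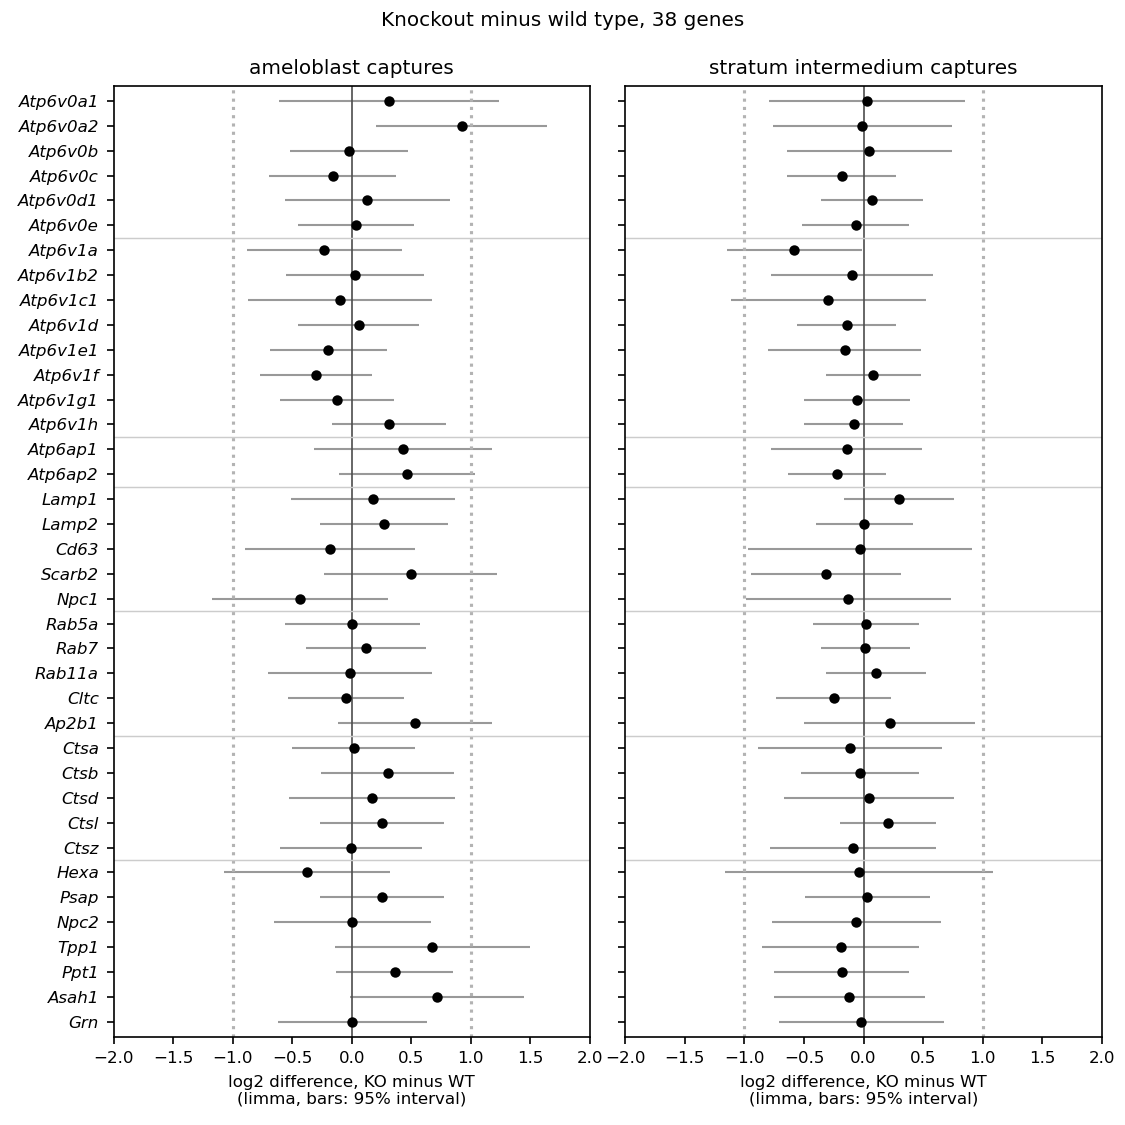
KO minus WT difference (log2) of the 38 genes in ameloblasts and stratum intermedium, with 95% intervals from limma. The widest differences are 0.92 for Atp6v0a2 in ameloblasts and −0.58 for Atp6v1a in stratum intermedium, and neither passed after adjustment.

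In stratum intermedium none of the 38 genes passed the test either, and the balance of signs was the other way. Of 16543 genes, limma called 0 (0.0%) after adjustment, with a smallest adjusted p of 0.404 over all genes and 1.00 among the members, and 340 (2.06%) at an unadjusted p under 0.05, with 1 member, Atp6v1a. The KO mean on the log2 scale was the higher for 13 of 38 members (34.2%, against 51.9% of all genes), and the members' median KO minus WT value was −0.057, against 0.017 over all genes. Every KO library lay above WT for 2 members (5.26%, background 7.76%) and below for 2 (5.26%, background 7.44%). These counts turned on the WT libraries. Without WT10, 7 members had the higher KO mean, with a median of −0.31 and 11 members at an unadjusted p under 0.05. Without WT5, 30 were higher, with a median of 0.15 and 6 at an unadjusted p under 0.05. The 95% interval lay within ±1 for 35 of 38 members, against 34.7% of all genes.

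Atp6v1a, the V1 subunit that holds the catalytic ATP sites, had the most negative KO difference of the members in stratum intermedium. Its gene (ENSMUSG00000052459) spans chr16:44085402-44139705 on the minus strand of GRCm38, and its promoter carried the CLEAR core shown above. It had 4248 and 6267 normalized counts in WT10 and WT5 and 2975, 3358 and 4104 in KO1, KO3 and KO9. The KO libraries lay below both WT libraries. The means were 5257 ± 1428 (SD, n = 2) and 3479 ± 574 (SD, n = 3). On the log2 scale the difference was −0.58 (SE 0.24), at a limma p of 0.045 and an adjusted p of 1.00. Without KO1 or KO3 it was no longer at an unadjusted p under 0.05 in limma. The same held with the library group, library weights or the replicate block in the fit. The log2 difference was −0.30 without WT5, −0.86 without WT10, −0.47 without KO1 and −0.56 without KO3. With the Xist level in the fit it was −0.33, where only KO9 stood against WT10 and WT5. In ameloblasts Atp6v1a had 3952 and 5324 in WT and 3053, 4056 and 4811 in KO, which overlapped.

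The other stratum intermedium members with small p-values differed by at most 0.32 on the log2 scale in either direction. Lamp1, a heavily glycosylated protein that lines the lysosomal membrane, had 7741 and 6328 normalized counts in WT and 10104, 7815 and 8050 in KO, a difference of 0.30 (SE 0.20) with KO3 barely above WT10. Ctsl had 6790 and 6822 in WT and 7120, 7811 and 8711 in KO, a difference of 0.21 (SE 0.17). Every KO library of Ctsl lay above WT, as in ameloblasts. Of all genes, 7.76% had this pattern in stratum intermedium and 9.09% in ameloblasts, and the share with it in both was not counted. Cltc had 5302 and 4827 in WT and 3561, 5051 and 4281 in KO, with overlap. Scarb2 had 1568 and 1018 in WT and 887, 1146 and 1026 in KO, also with overlap, and without WT10 its log2 difference shrank from −0.32 to −0.01. Atp6ap2 had 5760 and 6703 in WT and 5290, 4967 and 5769 in KO, where KO9 lay just above WT10, at a log2 difference of −0.22 (SE 0.18).

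**Figure D5:**
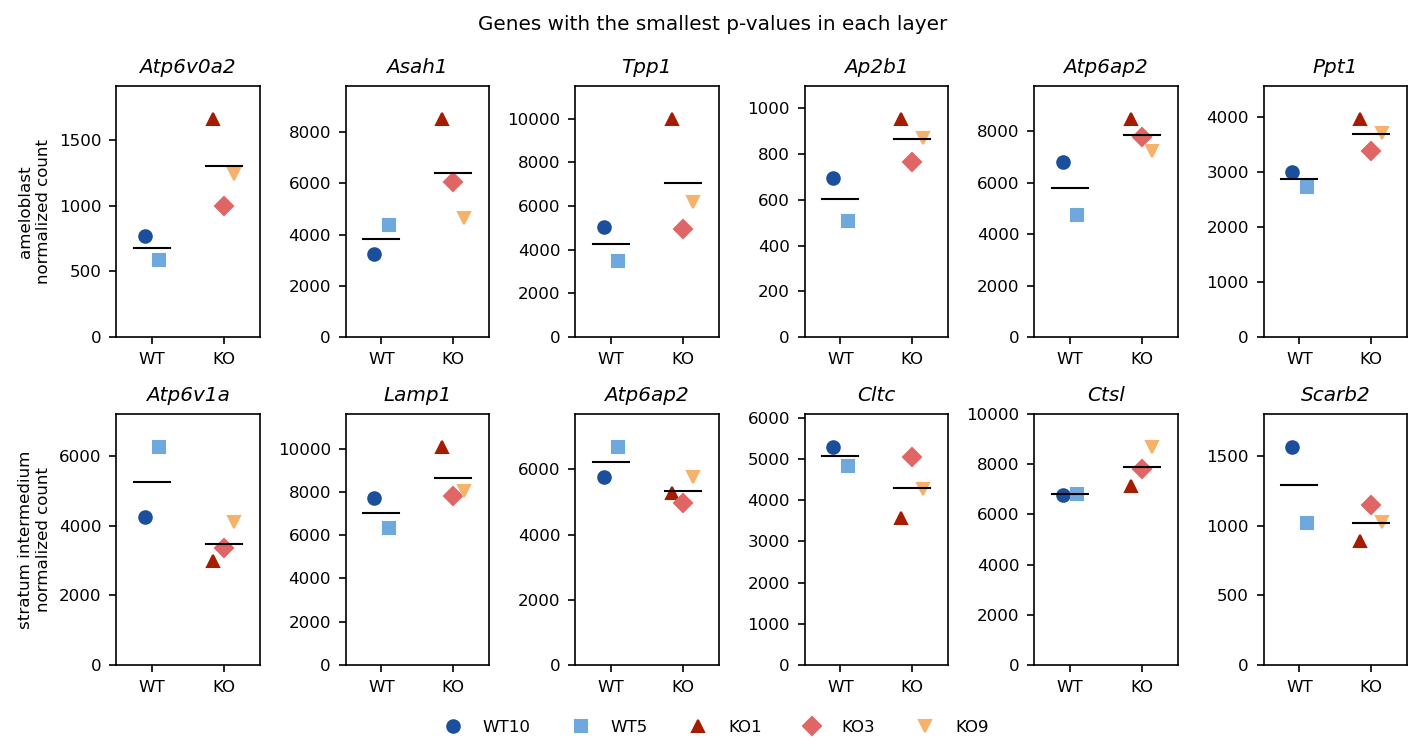
Normalized counts in every library (points, by mouse, with a bar at the mean of each genotype) of the genes with the smallest KO against WT p-values in ameloblasts and in stratum intermedium. In ameloblasts Atp6v0a2 runs from 586 to 767 in WT and from 1001 to 1660 in KO, and in stratum intermedium Atp6v1a runs from 4248 to 6267 in WT and from 2975 to 4104 in KO.

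Whether the KO difference itself was unlike in the layers was tested on the ameloblast minus stratum intermedium value of each mouse. Limma called 0 of 15567 genes (0.0%) after adjustment, with a smallest adjusted p of 0.836, and 802 (5.15%) at an unadjusted p under 0.05, with 2 members. The KO difference was the more positive in ameloblasts for 28 of 38 members, against 50.4% of all genes, with a median of 0.12, against 0.01. Without WT5 these fell to 14 members and −0.12, and without WT10 they were 35 members and 0.40. The counts at an unadjusted p under 0.05 were 4 and 5 without these mice, 0 without KO1 and 1 without KO3.

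Atp6v0a2 had the smallest p-value of the members, with a difference between layers of 0.93 (SE 0.34, adjusted p = 0.836 in limma). In stratum intermedium it had 1164 and 625 normalized counts in WT and 807, 766 and 983 in KO, which overlapped, in contrast to ameloblasts. In order of p-value, Atp6ap2 was next, at 0.68 (SE 0.27, adjusted p = 0.836 in limma), then Asah1, Tpp1 and Scarb2. Tpp1 differed by 0.87 (SE 0.37) and Scarb2 by 0.81 (SE 0.39). Asah1 differed by 0.84 (SE 0.36, adjusted p = 0.836 in limma), and in stratum intermedium it had 3341 and 5512 in WT and 3340, 4794 and 3860 in KO. Tpp1 in stratum intermedium had 2940 and 4698 in WT and 3881, 2524 and 3531 in KO, Ppt1 had 2680 and 4272 against 2789, 2883 and 3282, and Ap2b1 had 384 and 590 against 522, 517 and 633. All of these overlapped between genotypes in stratum intermedium.

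Other subunits of the pump, outside the 38, were mostly the isoforms of specialised cells. Of 10 listed, 6 were measured in ameloblasts and 8 in stratum intermedium, and 0 passed the limma test in either. Tcirg1, the V0 subunit of the osteoclast ruffled border, had 1993 and 2799 normalized counts in WT ameloblasts and 505, 1164 and 2050 in KO, a log2 difference of −1.15 (SE 0.55, adjusted p = 0.989 in limma). Its order over mice was that of the osteoclast marker list, of which it is a part. Atp6v0e2 had 755 and 483 in WT ameloblasts and 1498, 843 and 542 in KO. In stratum intermedium Atp6v0e2 had 534 and 402 in WT and 400, 471 and 344 in KO, and Atp6v0a4, the isoform of kidney intercalated cells, had 43.9 and 97.5 in WT and 277, 51.4 and 62.7 in KO. All of these overlapped between genotypes.

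Of 37 other lysosomal hydrolases and activators, 22 were higher in KO ameloblasts and 17 in KO stratum intermedium (53.0% and 51.9% of all genes), and 0 passed after adjustment in limma. At an unadjusted p under 0.05, 1 positive and 1 negative difference were found in ameloblasts and 0 in stratum intermedium, against 3.07% and 2.06% of all genes. Smpd1, the acid sphingomyelinase, which makes the ceramide that Asah1 splits, had 1797 and 1746 normalized counts in WT ameloblasts and 4260, 2631 and 2562 in KO, a log2 difference of 0.79 (SE 0.28, adjusted p = 0.989 in limma). Ctsw, a cathepsin of cytotoxic lymphocytes, had 139 and 185 in WT ameloblasts and 31.6, 46.3 and 54.9 in KO, at −1.87 (SE 0.55, adjusted p = 0.989 in limma). In stratum intermedium it had 78.0 and 168 in WT and 70.6, 6.81 and 57.7 in KO. Ctss, a cathepsin of antigen-presenting cells, had 16.1 and 687 in WT stratum intermedium and 374, 458 and 516 in KO, so its WT libraries enclosed all KO libraries.

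Of 22 other lysosomal membrane proteins 21 were measured in each layer, and 0 passed. In ameloblasts the difference was positive for 17 of the 21, at a median of 0.19 on the log2 scale (all genes 53.0% and 0.035). The difference was positive for 11 of 21 in stratum intermedium, at a median of 0.02 (all genes 51.9% and 0.017). Mfsd8, a transporter-like protein of the lysosomal membrane, had 386 and 238 normalized counts in WT ameloblasts and 696, 1032 and 704 in KO, at 1.39 (SE 0.35, adjusted p = 0.989 in limma). In stratum intermedium it had 732 and 499 in WT and 222, 454 and 600 in KO, which overlapped. Laptm5, a lysosomal protein of blood-derived cells, had 2096 and 4151 in WT ameloblasts and 923, 1515 and 1972 in KO. Clcn7, the chloride-proton exchanger that supports acidification, had 1098 and 1329 in WT stratum intermedium and 757, 830 and 860 in KO, at −0.57 (SE 0.23, adjusted p = 1.00 in limma).

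Of 37 other endosome, coat and sorting genes, 24 were higher in KO ameloblasts and 19 in KO stratum intermedium, with 0 past adjustment. Stam and Vps4b, which act in the ESCRT sorting of cargo into multivesicular endosomes, had the smallest ameloblast p-values. Stam had 713 and 524 normalized counts in WT ameloblasts and 972, 903 and 997 in KO (0.64, SE 0.26), but 732 and 884 in WT stratum intermedium and 412, 610 and 481 in KO (−0.70, SE 0.29). Vps4b had 2282 and 1824 in WT ameloblasts and 2940, 3286 and 2911 in KO (0.58, SE 0.22). Clta, a clathrin light chain, had 3317 and 3044 in WT stratum intermedium and 4480, 3894 and 4243 in KO (0.40, SE 0.18).

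Uptake receptors and regulators were also without a call after adjustment. Of 10 listed receptors, 8 were measured in ameloblasts and 9 in stratum intermedium, with 4 and 7 higher in KO. The adaptor Dab2 had 1118 and 1635 normalized counts in WT stratum intermedium and 1571, 1971 and 2304 in KO, which overlapped. In ameloblasts the transferrin receptor Tfrc had 922 and 1212 in WT and 497, 1441 and 640 in KO, and Cubn was low, at 43.8 and 52.1 in WT and 16.9, 72.1 and 0 in KO.

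The 19 regulators were split, with 8 higher in KO ameloblasts and 9 in KO stratum intermedium. Tfeb, which binds the CLEAR element, was low in both layers, with 21.5 and 71.0 normalized counts in WT ameloblasts and 51.0, 35.9 and 130 in KO. In stratum intermedium it had 67.1 and 82.4 in WT and 159, 119 and 164 in KO, without overlap, at 0.96 (SE 0.49, adjusted p = 1.00 in limma). The lysosome-positioning GTPase Arl8b had 1960 and 1988 in WT ameloblasts and 3287, 2707 and 2342 in KO, also without overlap (0.48, SE 0.23). Ppp3cb, a catalytic subunit of calcineurin, had 1419 and 1051 in WT ameloblasts and 701, 1097 and 583 in KO. Lamtor3 had 1728 and 1762 in WT stratum intermedium and 2095, 1872 and 2459 in KO.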

How the data were processed

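The signal values were deposited by the authors as 1 table of DESeq2-normalized counts per gene for each layer, per the file headers and names. Both names also carry the word noOutlier, and what had been left out was not examined. Per the submitters' processing notes, reads were handled on GRCm38 with STAR 2.5.2b, featureCounts and DESeq, with FastQC and Picard 2.8.1 also named; their settings were not given in the sources used here. Polyadenylated RNA was sequenced, per the labels' protocols. Every gene in a table had at least 10 normalized counts in at least 3 libraries. Low values did not lie on whole-read steps, so reads and depth were not recovered, and no count test or counting interval was made. Columns were matched by library name, with 0 unused.

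Differences were tested with two-sided limma-trend fits (limma 3.58.1, R 4.3.3) to the log2 of the normalized count plus a pseudocount of 1. Genes entered with a mean of 10 or more, and p-values had Benjamini-Hochberg adjustment over all genes and a threshold of 0.05. The fold changes are on that scale. Each layer was fitted in its own table, and the difference between layers on the ameloblast minus stratum intermedium value per prefix. The fits were tested on simulated data. Exon lengths and positions came from GENCODE for GRCm38. Named were the 6 members with the smallest p in each layer, the 6 with the widest layer difference, the 3 with the smallest p between layers, the highest and lowest per kilobase in each role, and the 2 smallest p of each other list. Of these, 1 gene is not reported here. Other members were named for their role or after their values were seen. The members and lists were chosen with earlier results of these data known. The alternatives changed the pseudocount to 0.5 or 8, dropped the filter or raised it to 50, used quantile normalization or a rescaling that ignored the 20 most abundant genes, and used robust variance, library weights (statmod 1.5.0), the Xist level, library group or replicate number as a term, centring on the library total, and leaving out each library or mouse. The Xist level entered as above or below 1000 normalized counts. This term set KO1 and KO3 apart, so the KO difference of that fit rests on KO9 alone against WT10 and WT5. Figures used matplotlib 3.10.9 in Python 3.11.15.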

Additional observations from a re-analysis of the deposited data

Results flagged for a closer look

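In each of the results that follow, every KO library lay above every WT library in ameloblasts and below every WT library in stratum intermedium. The genes of the lists tested in both layers numbered 166, of which 4 (2.41%) had this pattern, against 109 of all 15567 genes (0.7%), and 1 of the 4 is a member. For Atp6v1h the KO difference in ameloblasts exceeded that in stratum intermedium by 0.40 on the log2 scale (SE 0.20). For Clcn7 it exceeded it by 0.79 (SE 0.29), for Stam by 1.35 (SE 0.37) and for Vps4b by 0.80 (SE 0.25). The adjusted p of the difference in limma was 0.836 for each, so none of them passed. In stratum intermedium Atp6v1h had 2766 and 2835 normalized counts in WT and 2669, 2747 and 2518 in KO, a narrow gap, and Vps4b had 2534 and 3070 in WT and 2392, 2369 and 2424 in KO. Clcn7 had 1046 and 863 in WT ameloblasts and 1102, 1054 and 1178 in KO, with KO3 barely above WT10.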

How the results depend on the processing

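No member passed the adjusted threshold under any alternative run. The replicate numbers of the titles did not pair the libraries: same-numbered libraries had correlations of 0.086 and −0.116 in ameloblasts and −0.186 and −0.133 in stratum intermedium. With the replicate block the members' median log2 difference was 0.10 in ameloblasts (0.047 without it) and −0.10 in stratum intermedium, with 26 and 12 members higher, and with 2 and 0 at an unadjusted p under 0.05. Leaving out each library gave 0 to 1 genes past the threshold in ameloblasts (1 without WT5) and a members' median from 0.025 to 0.14. In stratum intermedium it gave 7 to 30 members higher and a median from −0.31 to 0.15. For the difference between layers, leaving out each mouse gave 0 to 2 genes past the threshold, 14 to 35 members higher and a median from −0.12 to 0.40. For the layer description it gave 16 to 29 members higher in ameloblasts in each mouse and 0 to 1 higher in stratum intermedium. Centring on the library total gave 8 and 4 members, with a median of 0.050. The cause of these changes was not tested. With the Xist level as a covariate only KO9 stood against the WT libraries, so that fit cannot separate sex from genotype over the KO libraries. Where a layer was left with 1 WT library, its spread is taken to be that of the KO libraries.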
